A study of Mus musculus with 21 samples.

Results

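The nuclear genes of the mitochondrial respiratory chain and ATP synthase were examined in mouse spiral ganglion neurons, the primary auditory neurons of the cochlea. Members were the lines of the deposited gene table whose symbol starts with Ndufa, Ndufb, Ndufc, Ndufs, Ndufv, Uqcr, Cox4i, Cox5, Cox6, Cox7, Cox8, Atp5 or Sdha to Sdhd, together with Cyc1, leaving out the Ndufaf genes and names with -ps. This gave 90 of 21878 genes: 38 of complex I, 4 of complex II, 9 of complex III, 18 of complex IV, 15 of complex V and 6 that share a prefix but lie outside the complexes (Sdhaf1, Sdhaf2, Sdhaf3, Sdhaf4, Atp5s and Atp5sl). A filter on low counts passed 88 of the 90, among 14968 genes tested. Cox7b2 and Cox8c did not pass it, and Cox8c had no count in any of the 21 libraries. The rule reads gene symbols alone, but this set of genes was chosen with earlier results of these data known.

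Each library held polyA RNA of about 50 neurons, drawn by micropipette at postnatal day 7 and amplified by Smart-seq2, a full-length cDNA method with no molecular identifiers. All groups had received an adeno-associated virus (AAV). The 4 control apex and 4 control base libraries carried EGFP in animals labelled WT. The 4 DN-HCN2 apex and 3 DN-HCN2 base libraries carried a site-mutated HCN2, a dominant-negative form of a channel opened by hyperpolarization. The 3 truncated SK3 apex and 3 truncated SK3 base libraries carried a truncated SK3, a dominant-negative form of a calcium-activated potassium channel. Apex and base are the low-frequency and high-frequency ends of the cochlea. Libraries of 1 group are labelled as biological replicates, with no animal named for any of them, so the p-values measure the spread between these libraries. The promoter that drives each construct and the share of collected neurons that carried it are not given in the sources used here.

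Complexes I to IV pass electrons from NADH and succinate to oxygen and build a proton gradient across the inner mitochondrial membrane, and complex V, the ATP synthase, uses that gradient to make ATP. Complex II (succinate dehydrogenase) is also an enzyme of the citric acid cycle and does not pump protons. Spiral ganglion neurons spend much of their ATP on restoring ion gradients after action potentials. The subunits encoded by the mitochondrial genome are not analysed here.

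Library totals ran from 10411634 to 15138780 counts, and levels are given as CPM, the count scaled to a common library total after TMM normalisation. All 15 neuronal markers averaged over 1 CPM, and their sum ran from 11013 to 23667 CPM. Markers of Schwann and satellite glia summed to 10716 to 47118 CPM and were counted in every library. In bulk RNA, fewer cells of a type and less RNA per cell cannot be told apart. Hcn2 ranged from 9.84 to 89.8 CPM in the 8 control libraries and from 14.6 to 121.8 CPM in the 7 DN-HCN2 libraries, and Kcnn3, the SK3 gene, did not exceed 1.94 CPM anywhere, so neither gene's counts checked the vector labels. Libraries of 1 group correlated across genes at 0.947 to 0.968 within the control groups and at 0.875 to 0.948 within the others.

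The 4 promoters below are shown because their genes carry the results that follow. Ndufs6 was the only member to pass the main test, by edgeR over all libraries, in any comparison. Other methods and settings, given below, called other members. Atp5g3 was among the members with the largest apical differences under DN-HCN2, and Cox8a and Cox8b are the common and the muscle-type form of 1 subunit. Each runs 5′ to 3′ on its gene's strand, from 250 bases before to 50 bases after the RefSeq transcription start, in build GRCm38.p6. Capitals mark the letters of a searched motif on either strand. They are AAGATGGCG (YY1) in Ndufs6, at chr13:73328433-73328732 on the minus strand, TNAAGGTCA (ERR, here in reverse complement) in Atp5g3, at chr2:73911277-73911576 on the minus strand, CCGGAAGT (ETS, in reverse complement) in Cox8a, at chr19:7217567-7217866 on the minus strand, and TATAAA (letters of the TATA motif) in Cox8b, at chr7:140900397-140900696 on the minus strand.
Ndufs6: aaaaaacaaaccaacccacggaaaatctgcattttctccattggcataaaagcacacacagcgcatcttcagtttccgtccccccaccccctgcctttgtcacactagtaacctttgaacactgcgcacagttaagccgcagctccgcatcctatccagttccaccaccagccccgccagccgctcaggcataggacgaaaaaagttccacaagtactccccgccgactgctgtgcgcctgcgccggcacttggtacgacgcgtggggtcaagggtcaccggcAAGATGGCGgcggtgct
Atp5g3: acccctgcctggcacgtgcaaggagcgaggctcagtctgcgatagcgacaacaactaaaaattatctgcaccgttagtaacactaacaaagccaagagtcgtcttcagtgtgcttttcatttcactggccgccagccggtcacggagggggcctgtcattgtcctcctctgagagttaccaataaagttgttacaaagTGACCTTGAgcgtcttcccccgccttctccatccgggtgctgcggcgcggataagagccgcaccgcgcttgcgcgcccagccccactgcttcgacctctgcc
Cox8a: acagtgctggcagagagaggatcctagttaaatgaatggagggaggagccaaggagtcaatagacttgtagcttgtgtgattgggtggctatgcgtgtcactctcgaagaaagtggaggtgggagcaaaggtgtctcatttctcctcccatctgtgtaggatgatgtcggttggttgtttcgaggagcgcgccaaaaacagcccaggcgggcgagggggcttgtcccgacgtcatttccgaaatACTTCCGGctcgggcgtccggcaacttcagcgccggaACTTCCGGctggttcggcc
Cox8b: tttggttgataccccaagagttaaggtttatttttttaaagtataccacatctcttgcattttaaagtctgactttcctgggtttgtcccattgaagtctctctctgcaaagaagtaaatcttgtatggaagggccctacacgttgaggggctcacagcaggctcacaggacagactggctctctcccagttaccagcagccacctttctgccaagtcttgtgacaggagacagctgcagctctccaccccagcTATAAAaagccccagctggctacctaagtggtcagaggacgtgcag
The YY1 letters of Ndufs6 began 34 bases from the start site, counting the first transcribed base as 1, the ERR letters of Atp5g3 at -52, the pair of ETS matches of Cox8a at -6 and 32, and the TATA letters of Cox8b at 5.

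Promoters of 71 members, in 76 windows of 300 bases, were matched by symbol in RefSeq and set beside all 32851 windows of the same length. The NRF1 letters GCGCATGCG, read by a regulator of nuclear genes for mitochondrial proteins, stood in 8 windows (10.5%, against 1.75% of all), those of Atp5g2, Atp5k, Atp5l, Cox6a1, Ndufa11, Ndufa8, Uqcr11 and Uqcrc1. The YY1 letters stood in 7 windows (9.21%, against 1.4%), those of Atp5j, Atp5j2, Ndufa9, Ndufc1, Ndufs4, Ndufs6 and Ndufs7. The ETS letters, part of the site read by GABP, stood in 5 (6.58%, against 3.89%): Atp5h, Cox8a, Ndufs3, Uqcr11 and Uqcrh. The ERR letters stood in 3 windows (3.95%, against 1.28%), of Atp5g3, Ndufb4 and Sdhd, and the TATA letters in 9 (11.8%, against 13.6%). The members' windows were richer in G and C (median 57.7%, against 52.7%), and this was not corrected for in these shares. A match describes letters in a window and is not evidence of binding.

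In these neurons the members together took 3.86% to 6.75% of all counts. Genes can be compared only per length, so levels are given as mean CPM over all libraries per kilobase of principal transcript. The highest was Cox4i1 (3072 CPM per kilobase), a core-associated subunit of cytochrome c oxidase, followed in complex IV by Cox5a (2099), Cox6a1 (1757) and Cox8a (1618). In complex I it was Ndufa4 (2994 CPM per kilobase), a small subunit first assigned to complex I and now known to sit on complex IV, then Ndufb8 (1352), Ndufb9 (1227) and Ndufa1 (960.6). In complex V the catalytic beta subunit Atp5b had 2266 CPM per kilobase, Atp5g3 1295 and Atp5h 1141. Atp5o is uncertain, since 63% of its 50-base stretches also occur at other loci, including 49.5% at the overlapping Donson. In complex III the small subunits Uqcr11, Uqcrh, Uqcrb and Uqcr10 had 1100, 1016, 895.6 and 843.6 CPM per kilobase. The order depends on the transcript taken: over its longest transcript of 1818 bases Cox5a had 744.6 CPM per kilobase. The 4 genes of complex II lay below these highest members of the other complexes. Sdhb, the iron-sulfur subunit, had 520 CPM per kilobase, Sdhd 369, Sdha 294 and Sdhc 91.3. The lower members of the other complexes are not set beside them here. Annotated transcripts of Atp5g1 (4715 bases), Ndufb2 (4371 bases), Ndufab1 (3479 bases), Sdhc (3171 bases) and Sdha (2900 bases) are much longer than those of most members, which lowers their level per kilobase.

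Members varied less among control libraries than most genes did. The coefficient of variation (SD divided by the mean) of CPM over the 8 control libraries had a median of 14.9% over the tested members, beside 24.7% over all tested genes, which include many of lower counts. It was lowest for Atp5c1, the gamma subunit of ATP synthase, at 4.78%, and for Atp5b, at 5.56%. Over all 21 libraries it was 11.9% for Atp5c1 and 30.3% for Ndufs6. The tested members with the widest ratio of highest to lowest group mean were Ndufa4l2, Cox6a2 and Cox8b, which are tissue-restricted forms at low levels.

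Where a subunit has a common and a tissue-restricted form, the common form had by far the more counts in every library. Cox4i1 averaged 2350 CPM over all libraries and Cox4i2, a form known from lung and oxygen-sensing cells, 2.10 CPM. Cox6a1 averaged 1003 CPM and Cox6a2, the form of heart and skeletal muscle, 1.37 CPM, of which 11.7 CPM was reached in the second DN-HCN2 apex library alone. Cox6b1 averaged 945 CPM and Cox6b2, the testis form, 6.41 CPM. Cox7a2 averaged 754 CPM and Cox7a1, the muscle form, 15.6 CPM. Ndufa4 averaged 1826 CPM and its paralogue Ndufa4l2 0.425 CPM, at 0 in 8 libraries. The mouse ATP synthase c subunit, by contrast, came from 3 genes that all counted, with Atp5g3 at 925 CPM, Atp5g1 at 873 CPM and Atp5g2 at 126 CPM, or 1295, 185 and 172 CPM per kilobase. These 3 encode the same mature protein behind different import signals.

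**Figure D1:**
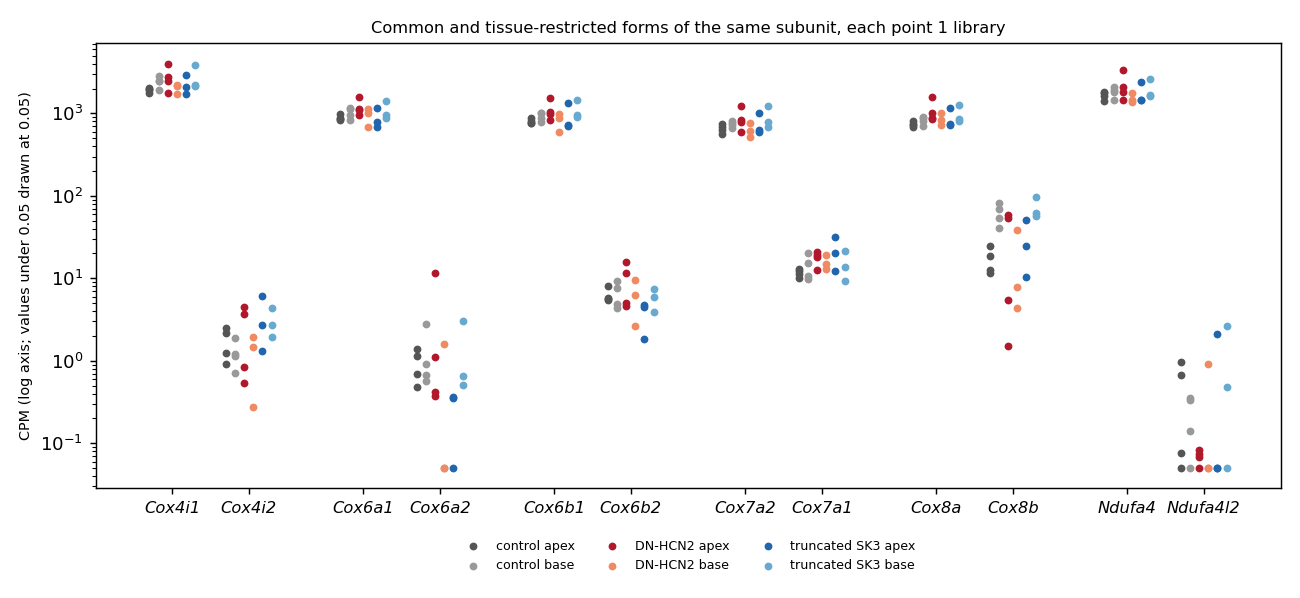
Level (CPM, log axis) of the common and the tissue-restricted form of 6 subunits, each point 1 library coloured by group, with values under 0.05 CPM drawn at 0.05. Common forms lie far above their restricted partners in every group, and Cox8b spreads widely, up to 96.6 CPM.

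Cox8b, the muscle and brown fat form of a small complex IV subunit, was the restricted form with the most counts, and its libraries differed widely. Its 4 control apex libraries had 12.5, 11.5, 24.9 and 18.4 CPM and its 4 control base libraries 40.7, 81.4, 54.3 and 69.3 CPM. DN-HCN2 apex gave 1.502, 5.51, 54.6 and 58.4 CPM, DN-HCN2 base 7.83, 4.36 and 38.6 CPM, truncated SK3 apex 10.3, 24.9 and 51.6 CPM, and truncated SK3 base 57.3, 62.6 and 96.6 CPM. Base lay above apex with no overlap in the control and the truncated SK3 groups, and the DN-HCN2 groups overlapped widely. The 10 markers of striated muscle summed to 92.7 to 290.1 CPM in control apex and to 90.2 to 298.3 CPM in control base. Their level thus did not separate the control regions. Under truncated SK3 they summed to 72.2 to 151.8 CPM in the apex and 196.1 to 297.7 CPM in the base, without overlap. Under DN-HCN2 the sums overlapped (81.2 to 572.2 CPM in the apex, 145.6 to 235.9 CPM in the base). Of the 10 markers, 4 averaged over 1 CPM, and their part in the Cox8b level was not tested. The common form Cox8a averaged 890 CPM over all libraries.

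The first question was whether blocking HCN2 changed these genes. In the apex, members lay higher in DN-HCN2 libraries than in controls: the log2 fold change was above 0 in 82 of the 88 tested members (51.3% of all genes), and its median was 0.39, beside 0.01 over all tested genes. None passed edgeR's quasi-likelihood test at a false discovery rate of 0.05 with Benjamini-Hochberg adjustment over all genes, a threshold that 0.2% of all genes passed. At an unadjusted p under 0.05 it was 34 members higher and 0 lower (38.6% higher, beside 5.68% of all genes). DESeq2 called 2 members (Ndufs6 and Ndufc1) and limma-voom 1 (Ndufs6). The shares of all genes beside calls in this report are those of edgeR, and DESeq2 and limma-voom call different numbers of genes. In 22 members every DN-HCN2 apex library lay above every control apex library, which is 25%, beside 4.59% of all genes. Among them were Ndufs6, Ndufb8 and Ndufa13 of complex I, Uqcrq and Uqcr11 of complex III, Cox8a of complex IV and Atp5g3, Atp5j and Atp5d of complex V.

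Summed over the members, the 4 control apex libraries had 48826, 42369, 43704 and 45259 CPM and the 4 DN-HCN2 apex libraries 46534, 51585, 70476 and 54459 CPM. The third DN-HCN2 apex library stood highest and the first lay within the control range. The third library was the highest of its group in 71 of 88 members. Without it the members' median fell to 0.19, with 78 of 88 positive, and 5 members in place of 34 had an unadjusted p under 0.05. In the fit with all libraries 5.68% of all genes were higher at that p. The share without the third library is not given here. With an offset for transcript length and GC content the median was 0.20, with 68 of 88 positive.

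The difference was uneven across the complexes. In DN-HCN2 apex against control apex the median log2 fold change was 0.40 over 38 members of complex I, 0.26 over 9 of complex III, 0.48 over 16 of complex IV and 0.39 over 15 of complex V, and it was positive in 36, 9, 16 and 15 of them. Complex II lay apart, with a median of -0.07 and 1 of 4 positive. The catalytic subunit Sdha had 922.4, 753.2, 968.0 and 857.5 CPM in control apex and 814.4, 767.1, 694.7 and 895.7 CPM in DN-HCN2 apex. The ranges of Sdha overlapped, as those of Sdhb and Sdhd did. The list of citric acid cycle genes had a median of -0.03 over 17 genes, none of them called.

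**Figure D2:**
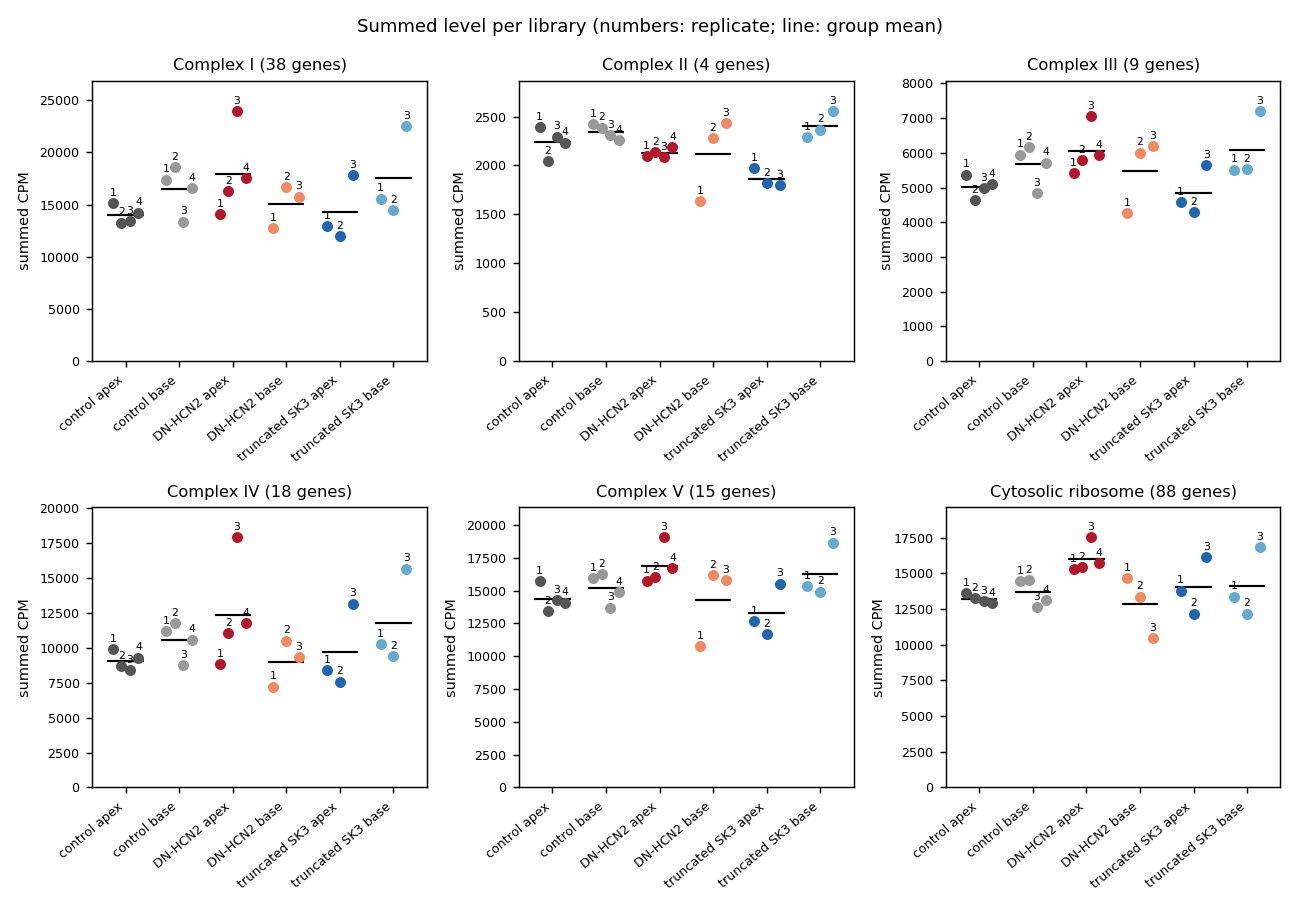
Summed CPM of the members of each complex, and of 88 cytosolic ribosomal protein genes for comparison, in each library (points numbered by replicate, lines at group means). The third libraries of DN-HCN2 apex, truncated SK3 apex and truncated SK3 base lie high in complexes I, III, IV and V and in the ribosome, and in complex II the first and the second of them lie lowest of their groups and the other highest of its group.

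A few libraries carried much of the spread. They were the third of DN-HCN2 apex, the third of truncated SK3 apex and the third of truncated SK3 base, where the summed members reached 70476, 54299 and 66946 CPM. The other libraries of those groups lay between 37667 and 54459 CPM. Relative to the control mean, the median log2 difference in these 3 libraries was 0.73, 0.25 and 0.63 for complex I and 0.78, 0.45 and 0.71 for complex IV, but -0.12, -0.32 and 0.20 for complex II. The citric acid cycle genes stood at -0.14, -0.17 and 0.09 and the cytosolic ribosomal protein genes at 0.52, 0.40 and 0.42. Members with short transcripts differed most: the median over the 52 members under 1000 bases was 0.80, 0.37 and 0.68, and over the 35 of 1000 bases or more it was 0.32, 0.06 and 0.29. Across members, the difference and the length correlated at a Spearman rho of -0.51, -0.57 and -0.56 in these libraries, as a description over 87 genes. In the other libraries the members' rho ran from -0.36 (control base replicate 1) to 0.47 (control apex replicate 3). Over 14455 annotated genes the rho with length was 0.015, -0.003 and -0.25 in these 3 libraries. Whether transcript length plays a part in the level of these libraries was not tested.

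**Figure D3:**
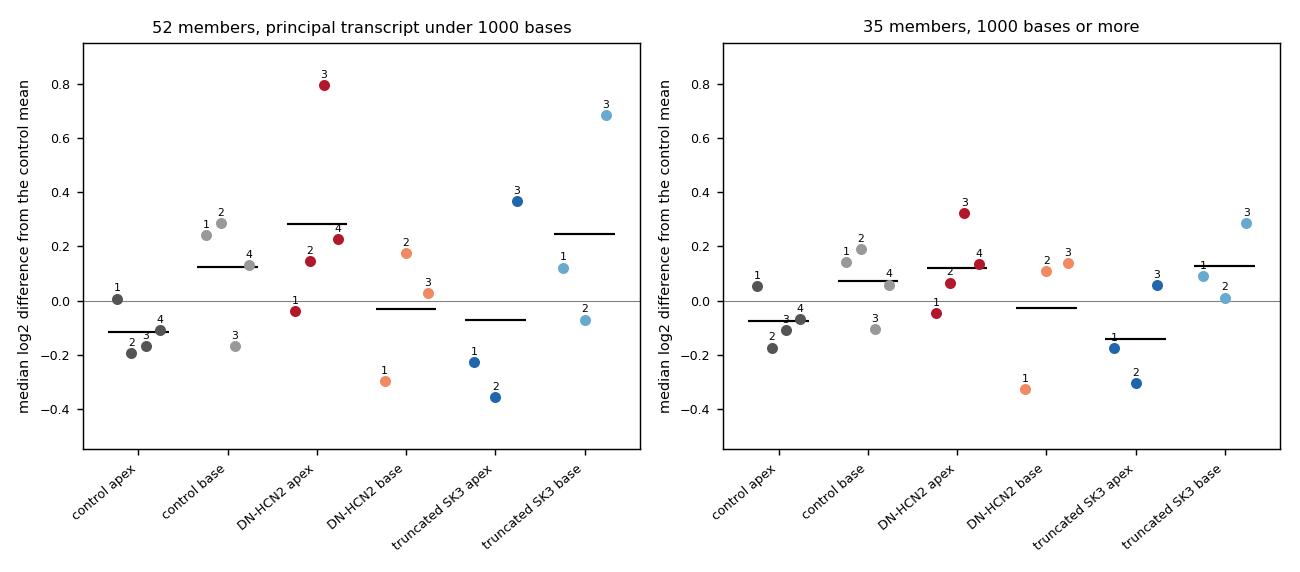
Median log2 difference from the mean of the 8 control libraries, per library, for 52 members with a principal transcript under 1000 bases (left) and 35 longer ones (right), with group means as lines. The third libraries of DN-HCN2 apex and truncated SK3 base reach 0.80 and 0.68 on the left but 0.32 and 0.29 on the right.

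Some marker sums were also high in those 3 libraries. Hair cell markers summed to 3667, 3088 and 2330 CPM there, where the first of these sums is the highest of the 21 libraries and the second the next highest. Erythrocyte markers summed to 62.8, 4152 and 2903 CPM, and endothelial markers to 4.98, 8.33 and 220.5 CPM. Neuronal markers, at 23250, 20198 and 20720 CPM, lay toward the upper end of their range. Schwann and satellite glia markers summed to 11160, 13536 and 25192 CPM, where the first of these sums is the lowest of its group. Macrophage markers were low, at 28.2, 9.59 and 20.2 CPM, while supporting cell markers, at 1442, 4864 and 617.7 CPM, were the highest of their group in both truncated SK3 libraries. Their 4864 CPM was exceeded only in the first DN-HCN2 apex library, at 10911 CPM. The part of these markers in the members' level was not tested.

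Ndufs6 encodes an accessory subunit of the complex I arm that binds NADH, and binds zinc. It had 211.6, 172.0, 186.6 and 175.5 CPM in control apex, 234.6, 282.0, 188.6 and 216.0 CPM in control base, 273.5, 328.2, 425.9 and 305.1 CPM in DN-HCN2 apex, and 264.2, 316.6 and 297.1 CPM in DN-HCN2 base. Every DN-HCN2 apex library lay above every control apex library, while in the base the lowest DN-HCN2 library lay below the highest control. Over both regions Ndufs6 rose by a log2 fold change of 0.59 (SE 0.157, adjusted p by edgeR 0.0300), the only call among 88 members in a comparison where 6.05% of all genes were called and 2.45% were called higher. At an unadjusted p under 0.05 it was 6 members higher and 0 lower (10.7% of all genes higher). DESeq2 also called 1 member there and limma-voom 2.

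The Ndufs6 call rested on a narrow margin. It was lost in 7 of 15 fits that left out 1 library (control apex replicate 2, 3 or 4, control base replicate 3 or 4, or DN-HCN2 base replicate 2 or 3), with an edgeR adjusted p of 0.0309 to 0.0672 over the 15 and a log2 fold change of 0.53 to 0.64. Without DN-HCN2 base replicates 2 and 3, which were rich in macrophage markers, it was 0.53 with an edgeR adjusted p of 0.161. In the truncated SK3 groups Ndufs6 had 212.1, 206.3 and 370.5 CPM in the apex and 302.3, 231.5 and 475.6 CPM in the base. In each region the third library lay well above the regional controls, the first just above the highest of them and the second inside their range. For both regions together the log2 fold change came to 0.52 (SE 0.162, adjusted p by edgeR 0.190). Ndufs6 lies at chr13:73319838-73328542 on the minus strand (GRCm38), and 8.33% of its 50-base stretches also occur in the pseudogene Ndufs6b.

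In the apex alone, the members with the smallest p under DN-HCN2 were Ndufs6, Ndufc1 and Atp5g3. Atp5g3, a c-ring gene of ATP synthase, had 868.1, 744.8, 672.1 and 743.2 CPM in control apex and 1185, 1167, 1732 and 1110 CPM in DN-HCN2 apex. The groups did not overlap, and its log2 fold change was 0.78 (SE 0.231, adjusted p by edgeR 0.198). Atp5g1, another c-ring gene, had 858.6, 759.5, 837.3 and 766.3 CPM in control apex and 925.3, 992.8, 1352 and 950.8 CPM in DN-HCN2 apex, also without overlap. Ndufc1, a membrane-arm subunit of complex I, had 209.7, 183.7, 184.0 and 186.2 CPM in control apex and 207.8, 265.5, 484.0 and 311.4 CPM in DN-HCN2 apex, with a log2 fold change of 0.73 (SE 0.212, adjusted p by edgeR 0.187), or 0.46 without the third DN-HCN2 library. Its first DN-HCN2 library lay inside the control range.

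**Figure D4:**
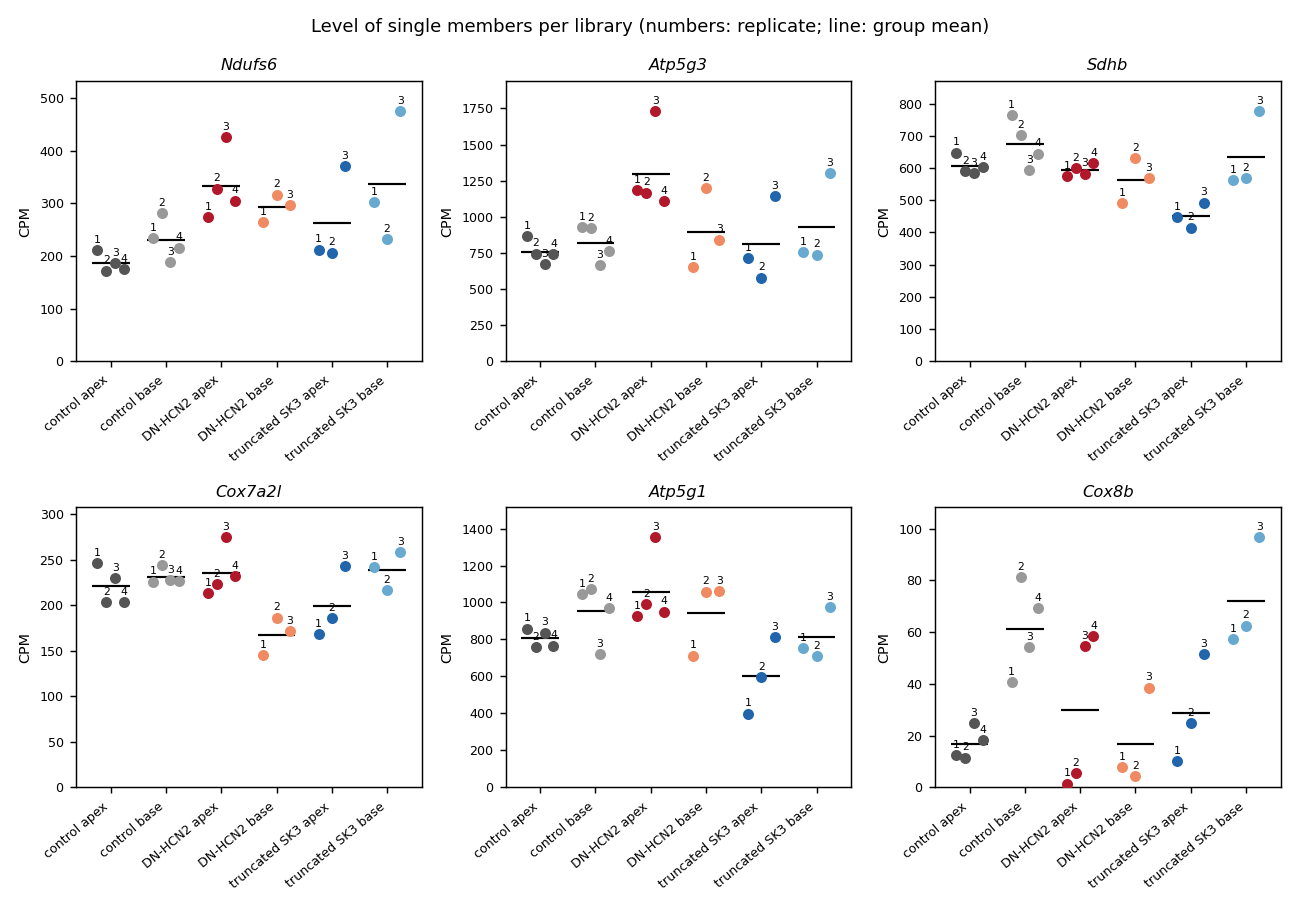
CPM of 6 members in each library (points numbered by replicate, lines at group means). Ndufs6 and Atp5g3 lie above control in all DN-HCN2 apex libraries, Sdhb lies below control in all truncated SK3 apex libraries, Cox7a2l lies below control in all DN-HCN2 base libraries, and Cox8b is higher in base than apex in control.

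In the base the members did not lie higher under DN-HCN2. The median log2 fold change was -0.13, beside 0.03 over all tested genes, and 20 of 88 members were positive (52.4% of all genes). edgeR called 0 members, beside 2.14% of all genes, with 0 higher and 2 lower at an unadjusted p under 0.05 (9.48% of all genes lower), and DESeq2 called 1 and limma-voom 0. The summed members gave 53235, 55542, 43325 and 50417 CPM in control base and 36911, 52009 and 49869 CPM in DN-HCN2 base. The first DN-HCN2 base library was the lowest of all 21 and the lowest of its group in 76 of 88 members. Its neuronal markers summed to 11013 CPM, also the lowest of the 21, and its fibroblast markers to 3797 CPM, the highest. Without it the median was -0.0028, and without the pair rich in macrophage markers, which leaves that library alone, it was -0.38.

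Cox7a2l, which helps join complexes III and IV into supercomplexes, had the smallest p of the members in that comparison. It had 226.1, 244.0, 228.2 and 226.3 CPM in control base and 145.6, 186.6 and 171.6 CPM in DN-HCN2 base. The groups did not overlap, and the log2 fold change was -0.46 (SE 0.146, adjusted p by edgeR 0.0907). DESeq2 called it, at -0.43 with an adjusted p of 0.0366. Its DN-HCN2 apex libraries, at 213.3, 223.2, 274.6 and 231.9 CPM, all lay above the base ones, with a log2 fold change for base against apex of -0.49 (SE 0.146, adjusted p by edgeR 0.167). Cox7a2l (chr17:83501918-83517330, minus strand) shares 17.7% of its 50-base stretches with Gm6969. Non-overlapping members in the base were Cox7a2l and Cox8b, both lower (2.27%, beside 9.03% of all genes). Ndufs5, an accessory subunit of complex I, had a log2 fold change of -0.71 (SE 0.263, adjusted p by edgeR 0.151) and Ndufc2, a membrane-arm subunit, of -0.51 (SE 0.249, adjusted p by edgeR 0.277). With the offset for length and GC content, edgeR called 5 members lower in the base, among them Cox7a2l, Ndufs5 and Ndufc2. The 2.14% of all genes called in the base was without this offset, and the share with it is not given here.

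Over both regions together, the DN-HCN2 median of 0.11 (67 of 88 positive, beside 52.5% of all genes) averaged these opposite regional values, and it became 0.03 without the third DN-HCN2 apex library and -0.08 (33 positive) with the length and GC offset. The difference between the regional effects, which draws on the same libraries as the comparisons above, was tested directly. Its median over the members was -0.49, with 5 of 88 positive (50.4% of all genes), beside 0.01 over all tested genes. edgeR called 0 members, beside 0.00668% of all genes, with 21 members lower and 0 higher at an unadjusted p under 0.05 (3.37% of all genes lower). DESeq2 and limma-voom also called 0. The members with the smallest p were Cox7a2l at -0.55 (SE 0.198, adjusted p by edgeR 0.580), Ndufa2 at -0.95 (SE 0.352, adjusted p by edgeR 0.607) and Ndufb2 at -0.99 (SE 0.373, adjusted p by edgeR 0.620). By complex the median was -0.49 for complex I, -0.12 for complex II, -0.39 for complex III, -0.64 for complex IV and -0.51 for complex V.

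**Figure D5:**
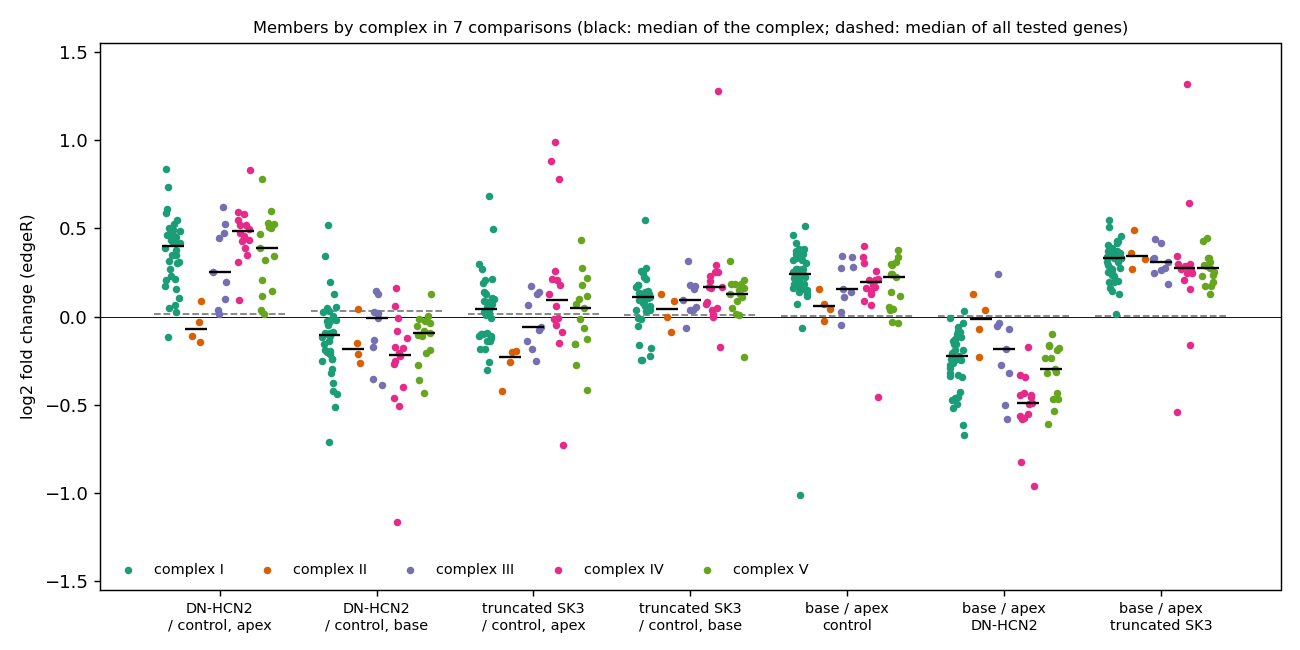
Log2 fold change (edgeR) of each tested member by complex in 7 comparisons, with the median of each complex in black and that of all tested genes dashed; 9 points lie outside the axis, beyond 1.5. Complexes I, III, IV and V lie above 0 in DN-HCN2 apex against control and below 0 for base against apex under DN-HCN2, while complex II stays near 0 in both.

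Under truncated SK3 the members showed little difference from control as a group. Over both regions the median log2 fold change was 0.08, with 59 of 88 positive (51% of all genes), and -0.01 (39 positive) with the length and GC offset. In the apex it was 0.04 (49 positive, 51.8% of all genes), or -0.03 with the offset, and in the base 0.11 (72 positive, 51.1% of all genes), or -0.02. edgeR called 0 members in each of the 3 comparisons, beside 0.735%, 0.254% and 0.147% of all genes. At an unadjusted p under 0.05 there were 3, 3 and 2 members, the last both higher (10.3% and 8.51% of all genes in either direction, and 2.58% higher in the base), DESeq2 called 0 in each, and limma-voom called 1 over both regions (Sdhb) and 0 in either region alone. The third libraries moved these medians. Over both regions the median was -0.03 without the third of the base, and at most 0.13 with another library left out. Without the third of the apex the apical median was -0.15 (13 positive), and without the third of the base the basal median was -0.10 (27 positive).

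Sdhb, the iron-sulfur subunit that hands electrons from succinate toward ubiquinone, was the member with the smallest p in the truncated SK3 apex. It had 648.7, 591.8, 585.4 and 603.1 CPM in control apex and 448.4, 415.4 and 493.0 CPM in truncated SK3 apex. The groups did not overlap, the third library included, and the log2 fold change was -0.43 (SE 0.136, adjusted p by edgeR 0.308). All 4 complex II genes were negative there, with a median of -0.23, but Sdhb alone had an unadjusted p under 0.05. The base gave 765.3, 702.3, 593.8 and 645.5 CPM in control and 562.6, 568.0 and 777.7 CPM under truncated SK3, which overlapped. Over both regions Sdhb had a log2 value of -0.26 (SE 0.0956, adjusted p by edgeR 0.309) and Atp5g1 of -0.32 (SE 0.150, adjusted p by edgeR 0.454). With the length and GC offset edgeR called Sdhb lower in the apex, at -0.47 with an adjusted p of 0.0488.

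Every truncated SK3 apex library lay below every control apex library in 6 members (6.82%, beside 6.77% of all genes), a share near the background. They were Sdhb, Atp5b, Cyc1, Ndufv1, Cox6b2 and Cox6a2. Cox7a1, the muscle form of a complex IV subunit, had 10.1, 12.2, 11.4 and 12.9 CPM in control apex and 20.4, 12.3 and 31.7 CPM in truncated SK3 apex, with a log2 fold change of 0.88 (SE 0.355, adjusted p by edgeR 0.478), or 0.49 without the third of them. The second of those libraries lay inside the control range. In the base, Uqcrc2, a core subunit of complex III, had 346.7, 318.4, 321.8 and 330.8 CPM in control and 398.0, 410.7 and 419.3 CPM under truncated SK3. Uqcrc2 was 1 of 4 members without overlap there (4.55%, beside 3.91% of all genes), and its log2 fold change was 0.31 (SE 0.139, adjusted p by edgeR 0.867). Atp5c1 followed at 0.20 (SE 0.134, adjusted p by edgeR 0.995), or 0.09 without the third truncated SK3 base library.

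DN-HCN2 and truncated SK3 libraries were also compared with each other over both regions. The members' median was 0.04, with 55 of 88 positive, beside 50.5% of all genes (or -0.05 with the length and GC offset), and edgeR called 0 of them beside 0.655% of all genes, with 1 higher at an unadjusted p under 0.05 (6.97% of all genes). The median was -0.02 without the third DN-HCN2 apex library and 0.13 without the third truncated SK3 apex library. DESeq2 and limma-voom each called Atp5g1. Atp5g1 had 399.3, 594.8 and 814.6 CPM in truncated SK3 apex and 752.5, 709.8 and 973.6 CPM in truncated SK3 base, against 712.9, 1059 and 1060 CPM in DN-HCN2 base and the apical values above. The ranges overlapped, and the log2 fold change was 0.51 (SE 0.155, adjusted p by edgeR 0.118). Without the third libraries of DN-HCN2 apex, truncated SK3 apex and truncated SK3 base it was 0.67 with an edgeR adjusted p of 0.0171.

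The last question was whether apex and base differ. In control neurons 80 of 88 members had a higher mean in the base (50.5% of all genes), with a median log2 fold change of 0.21, beside 0.00 over all tested genes. Without the second control base library the median was 0.12. edgeR called 0 members and 0% of all genes, with 3 members higher at an unadjusted p under 0.05 (2.58% of all genes), and DESeq2 and limma-voom called 0 members. Basal and apical libraries did not overlap in 5 members (Ndufa13, Ndufa2, Cox8b, Uqcr11 and Atp5d), or 5.68%, beside 2.64% of all genes. The third control base library had the lowest summed level of its group, 43325 CPM, inside the apical range. Ndufa13, a complex I subunit also known as GRIM-19, had 317.4, 266.5, 320.1 and 301.7 CPM in control apex and 407.5, 494.0, 328.0 and 434.0 CPM in control base, with a log2 fold change of 0.46 (SE 0.196, adjusted p by edgeR 0.862). Ndufa2, a small complex I subunit with a thioredoxin-like fold, had 236.2, 216.0, 243.6 and 230.7 CPM in control apex and 327.0, 402.6, 254.7 and 340.8 CPM in control base. Its groups did not overlap, and the log2 fold change was 0.52 (SE 0.238, adjusted p by edgeR 0.985). Cox8b, given above, had the largest regional difference of the 3 at 1.86 (SE 0.858, adjusted p by edgeR 0.998). When only the control libraries entered the fit, edgeR called Cox8b, at 1.86 with an adjusted p of 0.0267.

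Under truncated SK3 the members lay the same way, and under DN-HCN2 the other way. In truncated SK3 neurons 86 of 88 members had a higher mean in the base (50.1% of all genes), with a median of 0.29, and in DN-HCN2 neurons 5 of 88 (50.3% of all genes), with a median of -0.25. edgeR called 0 members in both, beside 0.0134% and 0.214% of all genes, with 11 higher and 12 lower at an unadjusted p under 0.05 (4.66% and 5.88% of all genes in those directions). DESeq2 called Sdhb higher under truncated SK3 and Cox7a2l lower under DN-HCN2, and limma-voom called neither. The truncated SK3 median was 0.08 without the third base library and 0.49 without the third apex library, and the DN-HCN2 median was -0.11 without the third apex library. In the truncated SK3 groups base and apex did not overlap in 16 members (18.2% higher, beside 6.27%), among them Sdhb, Sdha, Sdhd, Cyc1, Uqcrc1 and Atp5b. In the DN-HCN2 groups base lay below apex without overlap in 1 member, Cox7a2l (1.14%, beside 2.87%).

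Markers of other cell types also differed by region. The 17 markers of Schwann and satellite glia averaged 16656 CPM in control apex and 23633 CPM in control base, 16237 and 30724 CPM under truncated SK3, and 16072 and 13381 CPM under DN-HCN2. Their means thus lay higher in the base where the members' did and lower where the members' did, with overlapping libraries in each case. The 15 neuronal markers averaged 19871 CPM in control apex and 17511 CPM in control base, 17780 and 21342 CPM under truncated SK3, and 18703 and 14437 CPM under DN-HCN2. Their means went the members' way under both constructs and the other way in control. The 15 supporting cell markers summed to 693.4 to 2562 CPM in control apex and 238.3 to 619.6 CPM in control base, and to 2101 to 4864 CPM and 281.2 to 617.7 CPM under truncated SK3, without overlap in either. Under DN-HCN2 their apical sums (1041 to 10911 CPM) overlapped the basal ones (450.6 to 2644 CPM). The 12 fibroblast markers averaged 714.7 CPM in control apex and 1815 CPM in control base. They averaged 1329 CPM in the apex and 1126 CPM in the base under truncated SK3, and 1208 and 2074 CPM under DN-HCN2. Their libraries overlapped in each case. Every marker of these lists averaged over 1 CPM, and the part of these markers in the regional differences was not tested.

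Sdhb had a log2 fold change of 0.49 for base against apex under truncated SK3 (SE 0.144, adjusted p by edgeR 0.302), or 0.32 without the third base library. Cyc1, the cytochrome c1 subunit of complex III, had 708.3, 680.6 and 626.3 CPM in truncated SK3 apex and 781.1, 996.4 and 956.5 CPM in truncated SK3 base, a log2 fold change of 0.44 (SE 0.161, adjusted p by edgeR 0.410). The groups did not overlap. Uqcrc1, a core subunit of complex III, had a log2 fold change of 0.42 (SE 0.157, adjusted p by edgeR 0.432). Under DN-HCN2, Cox7b, a small complex IV subunit, had a log2 fold change of -0.57 (SE 0.221, adjusted p by edgeR 0.299), or -0.36 without the third apex library. No regional difference of the truncated SK3 effect was detected. The median difference was 0.08, or -0.17 without the third base library, edgeR called 0 of 88 beside 0% of all genes, 0 had an unadjusted p under 0.05 (3.64% of all genes), 61 of 88 were positive (48.5% of all genes), and DESeq2 and limma-voom called 0. The smallest p were those of Uqcrc2, Sdhd and Atp5b, at differences of 0.37, 0.39 and 0.36 with an edgeR adjusted p of 1.00 each.

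Other genes of the pathway were read from lists, of which that of assembly factors also holds the members Sdhaf1, Sdhaf2, Sdhaf3 and Sdhaf4. Of 44 assembly factors tested, 1 rose and 1 fell under DN-HCN2 over both regions, and 0 rose and 3 fell under truncated SK3, where 6.05% and 0.735% of all genes were called. Cox15, an enzyme of heme A synthesis for complex IV, had 45.6 to 74.5 CPM over the 8 control libraries, 7.64 to 18.5 CPM over the 7 DN-HCN2 libraries and 9.69 to 20.6 CPM over the 6 truncated SK3 libraries. No library of either treated set overlapped the controls, which are the same 8 libraries in both comparisons. Cox15 differed by a log2 value of -2.24 (SE 0.221, adjusted p by edgeR 3.04e-06) under DN-HCN2 and -2.03 (SE 0.229, adjusted p by edgeR 2.78e-05) under truncated SK3. Cox19, a copper-handling factor of the intermembrane space, rose under DN-HCN2 at 0.49 (SE 0.144, adjusted p by edgeR 0.0494). Lyrm7, which helps insert the Rieske protein of complex III, and Tmem126b, a factor for complex I assembly, fell under truncated SK3 at -1.66 (SE 0.349, adjusted p by edgeR 0.0231) and -0.67 (SE 0.138, adjusted p by edgeR 0.0202). Among 12 genes for cytochrome c and coenzyme Q, Coq10a, a coenzyme Q binding protein, rose under DN-HCN2 at 0.94 (SE 0.279, adjusted p by edgeR 0.0491) and no other gene was called.

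The mitochondrial ribosome, which translates the subunits encoded in the organelle, had a median log2 fold change of 0.23 over 77 genes in DN-HCN2 apex, none of them called. Over both regions Mrps10 and Mrps12, of the small subunit, rose at 0.88 and 0.53, and Mrpl55, of the large subunit, fell by 0.52 on the log2 scale, beside 6.05% of all genes called. The cytosolic ribosome, taken for comparison, had an apical median of 0.39 over 85 genes, the same as the members, with 0 rising and 4 falling in the apex (Rpl26, Rpl29, Rpl34 and Rps18), beside 0.2% of all genes called, and the proteasome 0.12 over 38 genes with 0 called. For base against apex under DN-HCN2 the cytosolic ribosome had a median of -0.36 and the members -0.25.

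Of 14 regulators of mitochondrial genes, 0 rose and 2 fell under DN-HCN2 over both regions, where 6.05% of all genes were called. Esrrg, an orphan nuclear receptor of the ERR family, had 183.2 to 315.1 CPM over the control libraries and 44.9 to 177.1 CPM over the DN-HCN2 libraries, with no overlap, and fell by 1.56 on the log2 scale (SE 0.207, adjusted p by edgeR 0.000184). It fell in each region (apex -1.36, adjusted p by edgeR 0.0389; base -1.75, adjusted p by edgeR 0.00553), and it also fell against truncated SK3, by 0.95 (SE 0.215, adjusted p by edgeR 0.0408). Gabpa, the DNA-binding subunit of GABP, overlapped at 18.2 to 40.6 CPM in control and 6.79 to 23.5 CPM in DN-HCN2 libraries, and fell by 0.90 (SE 0.256, adjusted p by edgeR 0.0422). Ppargc1a, a coactivator of mitochondrial biogenesis, had a log2 fold change of -0.37 (SE 0.151, adjusted p by edgeR 0.144), Nrf1 of 0.22 (SE 0.187, adjusted p by edgeR 0.541), Esrra of 0.68 (SE 0.346, adjusted p by edgeR 0.260) and Tfam of 0.15 (SE 0.175, adjusted p by edgeR 0.666). In the base Ppargc1a had 217.2, 217.7, 165.7 and 195.9 CPM in control and 100.4, 106.9 and 138.9 CPM in DN-HCN2, without overlap, while the apical ranges overlapped. None of the 14 was called under truncated SK3.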

How the data were processed

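Gene counts of 21 Smart-seq2 libraries were used as the authors deposited them, raw and unnormalised. Per the submitters' processing notes the tools were Trimmomatic, HISAT2 and DESeq2 and the builds GRCm38 and mm10; the read counter and annotation are not given in the sources used here. The members and the gene lists were chosen with earlier results of these data known. Genes were filtered with filterByExpr and scaled by TMM, and edgeR 4.0.16 (R 4.3.3) fitted robust quasi-likelihood models with 1 mean per group over all 21 libraries. There were 12 comparisons, with Benjamini-Hochberg adjustment over 14968 genes at a false discovery rate of 0.05. The SE is the log2 fold change divided by the square root of F. DESeq2 1.42.0, limma 3.58.1 (voom with sample quality weights), RLE scaling, an offset for GC content and length (natural splines, 5 degrees of freedom), a CPM filter, a replicate block and leaving out libraries were alternatives. Library totals were 10411634 to 15138780 counts. The deviations of same-numbered libraries of different groups correlated at a median r of -0.02 (48 pairs, 6 over 0.1, highest 0.28). For the other pairs it was 0.01 (135 pairs, 16 over 0.1, highest 0.18). Named members were those called, or else the 3 of smallest p per comparison, the 3 of highest CPM per kilobase per complex (ranked on the longest transcript; those ranked so on the principal transcript were added after their values were seen), tissue or paralogue forms, and the 3 with the widest range of group means. From the other lists they were called genes and regulators. Lengths came from GENCODE M21 and promoters from RefSeq (GRCm38.p6). The NRF1 and YY1 motifs were shortened by 1 letter after their matches had been counted, which raised the share of windows with a match among members and among all promoters. The fits were tested on simulated data.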

Additional observations from a re-analysis of the deposited data

Results flagged for a closer look

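In groups of 4 libraries, 132 sets of values were examined for a library far from the other 3, and 8 stood out (6.06%), where chance gives about 1 in 20. In the third DN-HCN2 apex library Atp5g1 had 1352 CPM (others 925.3 to 992.8), Atp5g3 1732 CPM (others 1110 to 1185) and Uqcr10 581.5 CPM (others 346.2 to 383.2). That library was also the highest of its group in 71 of 88 members. Cox6a2, the heart and muscle form of a complex IV subunit, had 11.7 CPM in the second DN-HCN2 apex library (others 0.373 to 1.11), where striated muscle markers also reached their highest sum, 572.2 CPM. It had 2.79 CPM in the first control base library (others 0.565 to 0.915). Among control libraries, Cox6b2 had 7.97 CPM in the first of the apex (others 5.40 to 5.70), Ndufc1 209.7 CPM in the first of the apex (others 183.7 to 186.2) and Cox7a2l 244.0 CPM in the second of the base (others 226.1 to 228.2).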

How the results depend on the processing

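Of the values recomputed, 224 counts of called members kept within 1.5 times (a 0 that stayed 0 included) and 29 did not. Of the medians, 226 moved by less than the replicate spread, 0.25 on the log2 scale, and 3 did not. Several medians are smaller than that spread, so a change of sign could count as unmoved. The DN-HCN2 median over both regions, 0.11, or -0.08 with the length and GC offset, was such a case. No direction past the threshold reversed among the named members. Fitting only the compared groups called 1 member for base against apex in control. The length and GC offset called 5 members under DN-HCN2 over both regions (1 higher, 4 lower), 5 in the base (all lower), and 1 under truncated SK3 over both regions and 1 in the apex (Sdhb, lower, in each). limma-voom called 2 under DN-HCN2 over both regions, 1 in the apex, 1 under truncated SK3 over both regions and 1 between the treatments. DESeq2 called 2 in the DN-HCN2 apex, 1 in its base, 1 for base against apex under each treatment and 1 between the treatments. Without the 2 libraries rich in macrophage markers, an alternative chosen after seeing the data like the next one, 2 members were lower under DN-HCN2 over both regions and 1 in the base, and the medians were -0.38 in the base and -0.55 for base against apex. That leaves 1 DN-HCN2 base library, the lowest of the 21 in summed members, which is assumed to vary like the other groups. Without the third libraries of DN-HCN2 apex, truncated SK3 apex and truncated SK3 base, 1 member was called in the DN-HCN2 apex, 1 under truncated SK3 over both regions and 3 between the treatments. Each of these 3 libraries had the highest summed level of its group. The second control base library, at 55542 CPM, lay above the truncated SK3 apex one, at 54299 CPM, and was kept. Leaving out 1 library gave 0 to 1 calls under DN-HCN2 over both regions and 0 to 1 between the treatments (1 without the third truncated SK3 base library), and -0.17 to 0.27 for the median regional difference of the truncated SK3 effect. No animal is named, so it is not known whether the replicate numbers pair the libraries. With a replicate block 1 member was called under DN-HCN2 over both regions and 0 in the other comparisons, and with the block and the length and GC offset 3 were lower over both regions and 2 in the base. The cause of these changes was not tested. Over all genes, DN-HCN2 over both regions gave 906 calls by edgeR, 1730 by DESeq2 and 1483 by limma-voom. For the other counts of this paragraph the numbers over all genes are not given here.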
